A study of Solanum lycopersicum with 14 samples.

Results

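Fruits harvested 21 days after flowering (DAF) were compared with fruits harvested 14 DAF, which are 2 neighbouring ages in the growth of the green tomato. The members are 4 of the 14 RNA-seq libraries of the series, picked out by the ages in their labels: AC and HG6-61 at 21 DAF, and AC and HG6-61 at 14 DAF. AC is the cultivar Ailsa Craig, and the labels give no treatment or transgene for any library. Each library came from fruits of 5 plants that the authors mixed, and each cultivar has 1 library per age. The 2 cultivars were grown in the same greenhouse and serve as the 2 replicates of each age. The spread behind every test is therefore that between cultivars in how they changed, and it leans on the spread of other genes. The study describes AC as early and HG6-61 as late in maturing, so equal days need not be equal stages of growth. It sampled the cultivars in parallel, so effects of harvest or handling shared by an age cannot be told apart from age. The study's methods name the pericarp as the tissue, while the labels say fruit and give the same stage name, mature green, to both ages. The question is which genes were higher and which were lower at 21 than at 14 DAF in both cultivars.

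A tomato fruit grows first by cell division and then mainly by the enlargement of its cells, which take up water into a large vacuole while the wall is loosened and new wall is laid down. Nuclei of pericarp cells pass through extra rounds of DNA replication without division during this period. Xyloglucan endotransglucosylases, expansins and pectin methylesterases act on the wall, aquaporins carry water through the plasma membrane and the tonoplast, and proton pumps energize both membranes. Seeds grow inside the same fruit and later fill with storage proteins and oil bodies.

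The libraries held 2052528 (AC) and 6274456 (HG6-61) counts at 21 DAF, against 2553401 (AC) and 4459620 (HG6-61) counts at 14 DAF. At least 1 read was found for 21034 and 22493 genes at 21 DAF and for 20470 and 21836 genes at 14 DAF, in AC and HG6-61 each time. Between 7.94% and 8.99% of a library's counts fell on its 10 most abundant genes. Levels are given as CPM, the reads of a gene scaled by the library total and edgeR's TMM factor, and the level that 3 reads set is between 0.484 and 1.52 CPM in the 4 libraries. A gene with 0 reads is therefore below that limit and not shown to be absent, and these limits cover counting error only. A gene's symbol is the one that the deposited tables give for its nearest Arabidopsis relative, and the files place each gene on a chromosome of the SL2.40 build without its start and end.

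Of 16789 genes tested, 480 rose and 71 fell between the 2 ages at an adjusted p under 0.05 by edgeR's quasi-likelihood test with cultivar in the model. These are 2.86% and 0.423% of the genes tested. At an unadjusted p under 0.05 by the same test, 9.55% were higher and 6.11% lower. These shares are the background for the counts of each group of genes below. Each of the 551 genes moved in the same direction in AC and in HG6-61. The median log2 fold change was 2.76 for the genes that rose and -2.04 for those that fell, against -0.01 over all genes tested. Errors given after ± are standard errors of the fitted log2 fold change, with 2 libraries per age. They were worked back from the F statistic of the test and so are not a measure separate from its p-value. A log2 fold change above 2 was reached by 356 of the 480 genes that rose, and one under -2 by 36 of the 71 that fell. Among the genes that rose, 462 were higher in both 21 DAF libraries than in both 14 DAF libraries, a pattern that 21.3% of the genes tested had. For 61 of the genes that fell, both 21 DAF libraries were below both 14 DAF libraries, which was so for 20.6% of the genes tested. The genes were called from these same 4 libraries. The shared direction and these counts therefore describe the called genes and give no separate support.

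**Figure D1:**
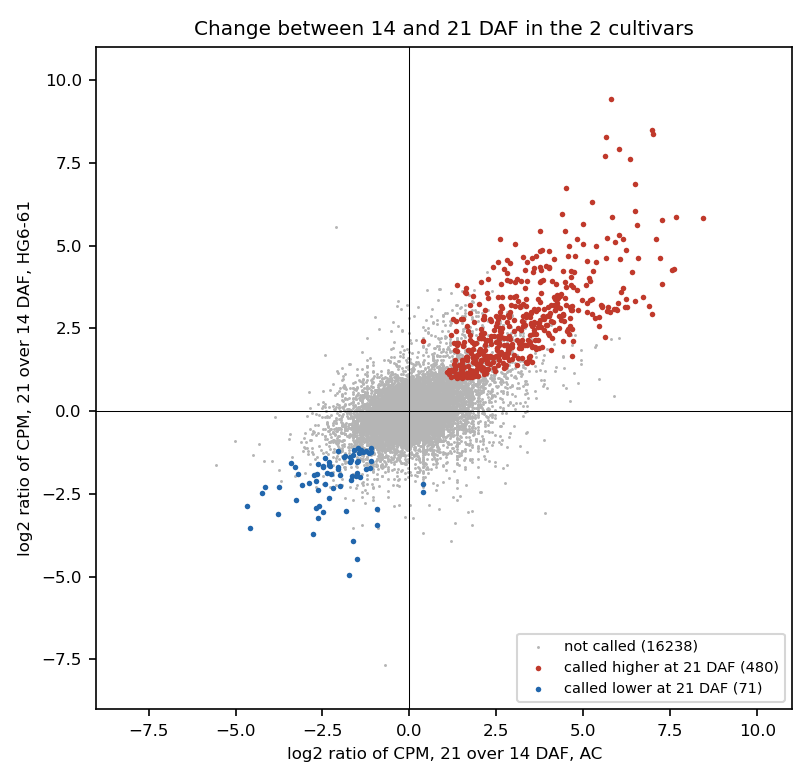
Each point is 1 of 16789 genes, with the log2 ratio of CPM at 21 over 14 DAF in AC on the horizontal axis and in HG6-61 on the vertical axis. Levels under 3 reads were set to the level of 3 reads, which places 2 of the 71 genes called lower on the positive side of the AC axis. The 480 genes called higher (red) lie in the upper right and the 71 called lower (blue) mostly in the lower left.

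The number of genes called differed between fits. With all 14 libraries in 1 fit, 188 genes were called higher (1.04%) and 11 lower (0.0608%), of which 180 and 11 belonged to the 480 and the 71. With only the 8 libraries from 7 to 28 DAF, the numbers were 499 (2.72%) and 86 (0.469%), of which 368 and 41 belonged to them. Without cultivar in the model, the 4 libraries gave 127 and 6. When a library was left out of the 14-library fit, 61 and 0 genes were called without AC at 21 DAF, 106 and 2 without HG6-61 at 21 DAF, 48 and 4 without AC at 14 DAF, and 121 and 3 without HG6-61 at 14 DAF. The study's own limits were stricter (adjusted p below 0.01, log2 fold change larger than 2 in size), and 136 genes that rose (0.81%) and 5 that fell (0.0298%) passed them.

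The libraries of 28 and 7 DAF did not enter this comparison and gave a separate reading of the same genes. Of the 480 genes that rose, 458 could be tested at 28 against 7 DAF, and 424 of them (92.6%) were called higher there and 1 was called lower. All 71 genes that fell could be tested, and 59 (83.1%) were called lower at 28 than at 7 DAF and 5 were called higher. Over all genes tested at 28 against 7 DAF, 21.9% were called higher and 20.9% lower. Among those tested in both comparisons, 21.9% were called higher and 19.8% lower at 28 than at 7 DAF. The median log2 fold change of 28 over 7 DAF was 3.59 for the genes that rose, -5.31 for those that fell and 0.05 over all genes. Part of these changes came before 14 DAF. The median level of the genes that fell was 121 CPM at 7 DAF and 34.8 CPM at 14 DAF in AC, and 107 and 47.6 CPM in HG6-61. For the genes that rose it was 4.17 and 8.34 CPM in AC, and 3.98 and 7.97 CPM in HG6-61.

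Genes that rose differed in what followed. Their highest level over the 7 ages was at 21 DAF itself for 148 of the 480 in AC and for 100 in HG6-61, and for 71 of them in both. It was at 49 DAF for 165 genes in AC and at 42 DAF for 139 in HG6-61. From 21 to 28 DAF, 156 of the 480 went on to a higher level in both cultivars and 167 had a lower level in both. Of the 71 genes that fell, 49 had their highest level at 7 DAF in AC and 52 in HG6-61, with 46 in both. These positions describe single libraries and carry no test.

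Genes of the maturing seed were among those with the largest increases, and of the gene lists described here the seed lists had the highest median log2 fold changes. Of the 14 seed markers that could be tested among 45 listed, 11 rose and 0 fell, with a median log2 fold change of 6.01. A wider list of seed maturation genes, put together after the values were seen, had 25 of its 31 tested members among the genes that rose, and all 31 had a positive log2 fold change. In it, 8 of 8 tested storage protein genes rose, 9 of 10 oil body protein genes, 4 of 7 late embryogenesis abundant proteins, 2 of 2 seed tonoplast intrinsic proteins and 1 of 3 regulators. The CRU1-like gene Solyc03g005580, which encodes a globulin of the cruciferin type that seeds store as a nitrogen reserve, was at 8332 CPM in AC and 1866 CPM in HG6-61 at 21 DAF, against 127 and 7.71 CPM at 14 DAF, a log2 fold change of 6.88 ± 0.58, adjusted p = 0.00363. Its relatives Solyc09g025210, Solyc09g072560 and Solyc09g090150 showed the same order of levels. Solyc09g025210 was at 8577 CPM in AC and 2106 CPM in HG6-61 at 21 DAF, against 174 and 10.1 CPM at 14 DAF. The level of Solyc09g072560 was 6684 CPM in AC and 1572 CPM in HG6-61 at 21 DAF, against 132 and 5.07 CPM at 14 DAF. For Solyc09g090150 it was 3706 CPM in AC and 802 CPM in HG6-61 at 21 DAF, against 29.6 and 2.2 CPM at 14 DAF. These 4 genes are close relatives, and since reads that mapped to several places were removed, the split of reads among them is uncertain.

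On the per-length scale of the deposited RPKM values, Solyc09g025210 ranked 8 in AC and 28 in HG6-61 among all genes at 21 DAF, against 1327 in AC and 13575 in HG6-61 at 14 DAF. Solyc03g005580 ranked 9 in AC and 34 in HG6-61 at 21 DAF, against 1971 in AC and 14812 in HG6-61 at 14 DAF. Other storage protein genes moved likewise. SESA5-like Solyc08g080490, an albumin of the 2S type, was at 1354 CPM in AC and 291 CPM in HG6-61 at 21 DAF, against 10.5 and 0.881 CPM at 14 DAF (log2 fold change 7.41 ± 0.41, adjusted p = 0.00183). Vicilin-like PAP85 genes were seen as well, and Solyc09g082340 was at 2229 CPM in AC and 643 CPM in HG6-61 at 21 DAF, against 27.6 and 3.3 CPM at 14 DAF (log2 fold change 6.85 ± 0.43, adjusted p = 0.00249). Solyc09g065470, the other PAP85-like gene, had 466 reads in AC and 238 in HG6-61 at 21 DAF, against 2 and 0 at 14 DAF (adjusted p = 0.00183). SESA4-like Solyc07g064210 had 795 reads in AC and 233 in HG6-61 at 21 DAF, against 2 and 0 at 14 DAF (adjusted p = 0.00183). Both had so few reads at 14 DAF that no fold is given. The 2 BETA-TIP-like genes Solyc06g072130 and Solyc03g019820, whose Arabidopsis relative is an aquaporin of the seed vacuole, rose too. Solyc06g072130 had 177 reads in AC and 178 in HG6-61 at 21 DAF, against 17 and 0 at 14 DAF, and Solyc03g019820 had 38 reads in AC and 32 in HG6-61 at 21 DAF, against 2 and 1 at 14 DAF.

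Seed genes stood at different levels in the 2 cultivars. The wider seed list took 3.23% of the counts in AC and 0.782% in HG6-61 at 21 DAF, against 0.0764% in AC and 0.0124% in HG6-61 at 14 DAF. For the 8 storage protein genes, the level in AC was between 3.47 and 10.7 times that in HG6-61 at 21 DAF, with a median of 4.54, whereas the median ratio was 1.69 over the genes that rose and are on neither seed list. On the scale of all 14 libraries, the summed level of the wider seed list in HG6-61 was 22225 CPM at 28 DAF and 7234 CPM at 21 DAF, and in AC it was 30387 CPM at 28 DAF and 29574 CPM at 21 DAF. Of the 25 seed genes that rose, 12 had a higher level at 28 than at 21 DAF in both cultivars and 0 had a lower level in both. In AC, 11 of the 25 had their highest level at 21 DAF, and in HG6-61 0 did. The 5 listed seed coat markers gave 1 gene that could be tested, with a log2 fold change of -0.63, and it was not called. The sampled tissue is named as pericarp, yet these defining markers of seed are among the most abundant transcripts of AC at 21 DAF. The 25 listed seed genes that rose hold 29.0% of the summed gain in CPM of the 480 genes. The rest of this gain lies in genes on neither seed list, and whether any of them are expressed in seed was not tested. With both seed lists removed before scaling and testing, which was done after the values were seen, 652 genes were called higher and 154 lower, of which 447 and 71 belonged to the 480 and the 71. Among the seed markers 6 genes were called higher with all 14 libraries in the fit, and in the wider list 12. In edgeR's fit without cultivar, 0 of 32 tested members of the seed lists were called, with 20 higher and 0 lower at an unadjusted p under 0.05. The part of seed tissue in the result was not tested. In mixed tissue, a gene's level cannot tell a change in the number of cells of a type from a change in RNA per cell.

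**Figure D2:**
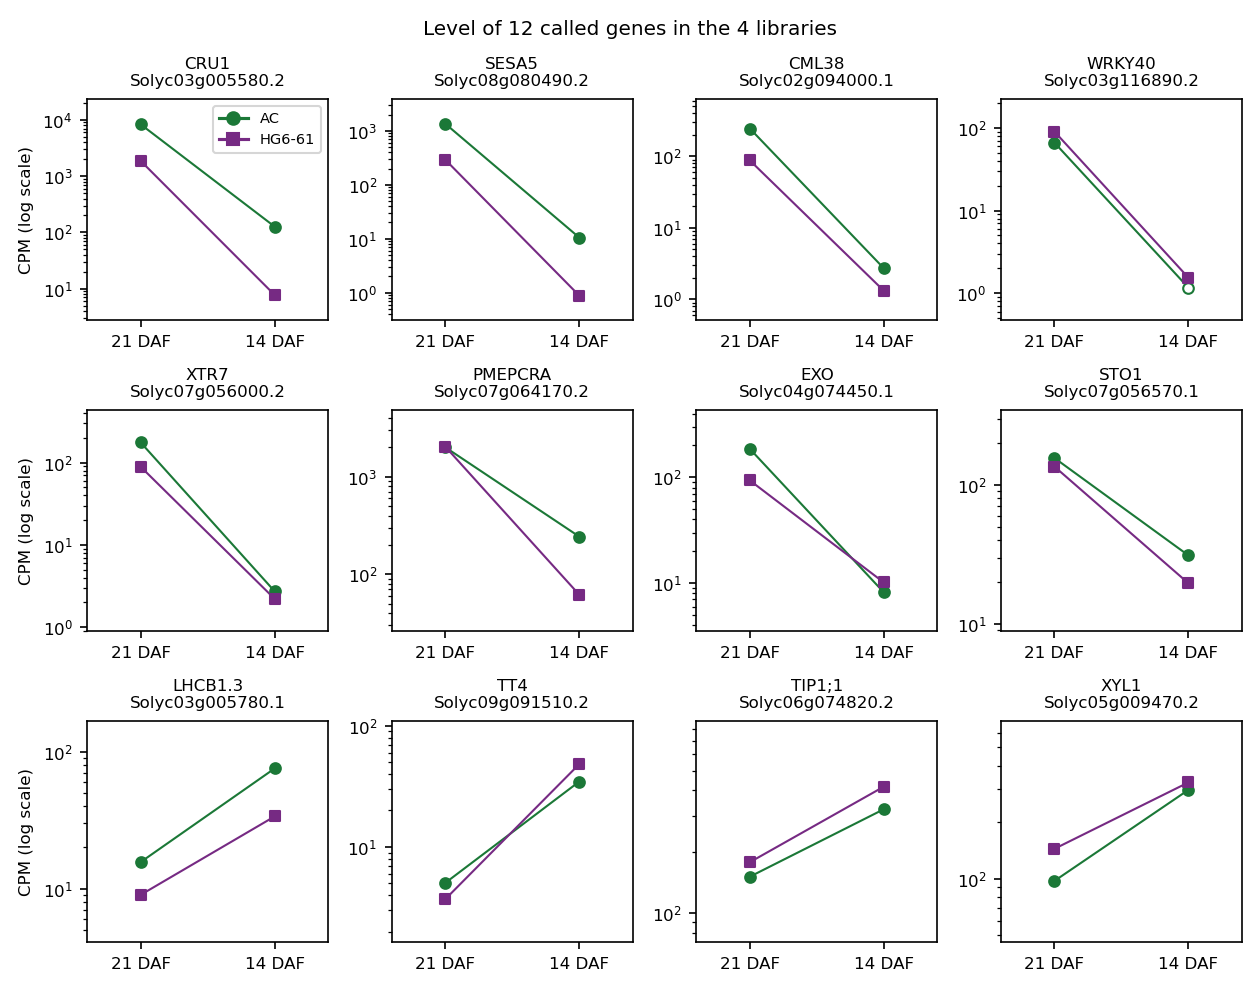
CPM on a log axis of 12 genes called at 21 against 14 DAF, with 1 line per cultivar joining its 21 DAF library on the left to its 14 DAF library on the right. Open symbols are libraries with fewer than 3 reads, drawn at the level of 3 reads. The upper 8 genes are higher and the lower 4 are lower at 21 DAF in both cultivars, and CRU1 and SESA5 stand higher in AC than in HG6-61.

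Another group that rose is made of genes known in Arabidopsis for rapid and short responses to wounding, touch, cold and calcium signals. This list was put together after the values were seen and so has no test of its own. Among its 86 tested members, 55 rose and 0 fell, and the median log2 fold change was 2.38. The number called higher was 26 with all 14 libraries in the fit and 21 without cultivar in the model. They comprise 9 of 10 tested calcium sensors and transporters, 15 of 18 ERF and DREB factors, 9 of 18 WRKY factors, 14 of 19 zinc finger, MYB, GRAS and heat shock factors, 4 of 9 kinases, oxidases and ubiquitin ligases and 4 of 12 jasmonate genes. CML38-like Solyc02g094000, a calmodulin-like calcium sensor, was at 244 CPM in AC and 87.5 CPM in HG6-61 at 21 DAF, against 2.72 and 1.32 CPM at 14 DAF (log2 fold change 6.26 ± 0.32, adjusted p = 0.00183). The 2 libraries of each age lie far from those of the other. WRKY40-like Solyc03g116890, a transcription factor of defence and wound responses, had 131 reads in AC and 559 in HG6-61 at 21 DAF, against 0 and 7 at 14 DAF (adjusted p = 0.00363). DREB1A-like Solyc03g124110, a cold-induced activator, had 215 reads in AC and 202 in HG6-61 at 21 DAF, against 1 and 1 at 14 DAF (adjusted p = 0.0019), and Solyc03g026280, also DREB1A-like, had 173 reads in AC and 120 in HG6-61 at 21 DAF, against 0 and 3 at 14 DAF. RRTF1-like Solyc10g050970, an ERF factor induced by redox stress, had 74 reads in AC and 206 in HG6-61 at 21 DAF, against 1 and 1 at 14 DAF (adjusted p = 0.00329).

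Several of these genes had no reads at 14 DAF in either cultivar. DDF1-like Solyc08g007830, a DREB-type factor, was at 18.7 CPM in AC and 19 CPM in HG6-61 at 21 DAF, against 0 reads at 14 DAF, and so at least 16-fold higher in AC and at least 28.8-fold higher in HG6-61 (adjusted p = 0.0095). The U-box ubiquitin ligase gene PUB23-like Solyc01g007030 was at 7.07 CPM in AC and 24.3 CPM in HG6-61 at 21 DAF, against 0 reads at 14 DAF, and so at least 6.06-fold higher in AC and at least 36.8-fold higher in HG6-61 (adjusted p = 0.0123). CML39-like Solyc11g071760, another calmodulin-like sensor, was at 15.7 CPM in AC and 13.4 CPM in HG6-61 at 21 DAF, against 0 reads at 14 DAF, and so at least 13.4-fold higher in AC and at least 20.2-fold higher in HG6-61 (adjusted p = 0.0137). Such bounds compare each 21 DAF library with the level of 3 reads in the 14 DAF library of its cultivar. CML38-like Solyc06g073830 had 29 reads in AC and 105 in HG6-61 at 21 DAF, against 1 and 0 at 14 DAF (adjusted p = 0.0123). In contrast with the storage protein genes, the 55 members that rose had a median ratio of 1.29 between AC and HG6-61 at 21 DAF, with a range from 0.29 to 4.52. The list took 0.981% of the counts in AC and 0.82% in HG6-61 at 21 DAF, against 0.21% in AC and 0.23% in HG6-61 at 14 DAF.

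**Figure D3:**
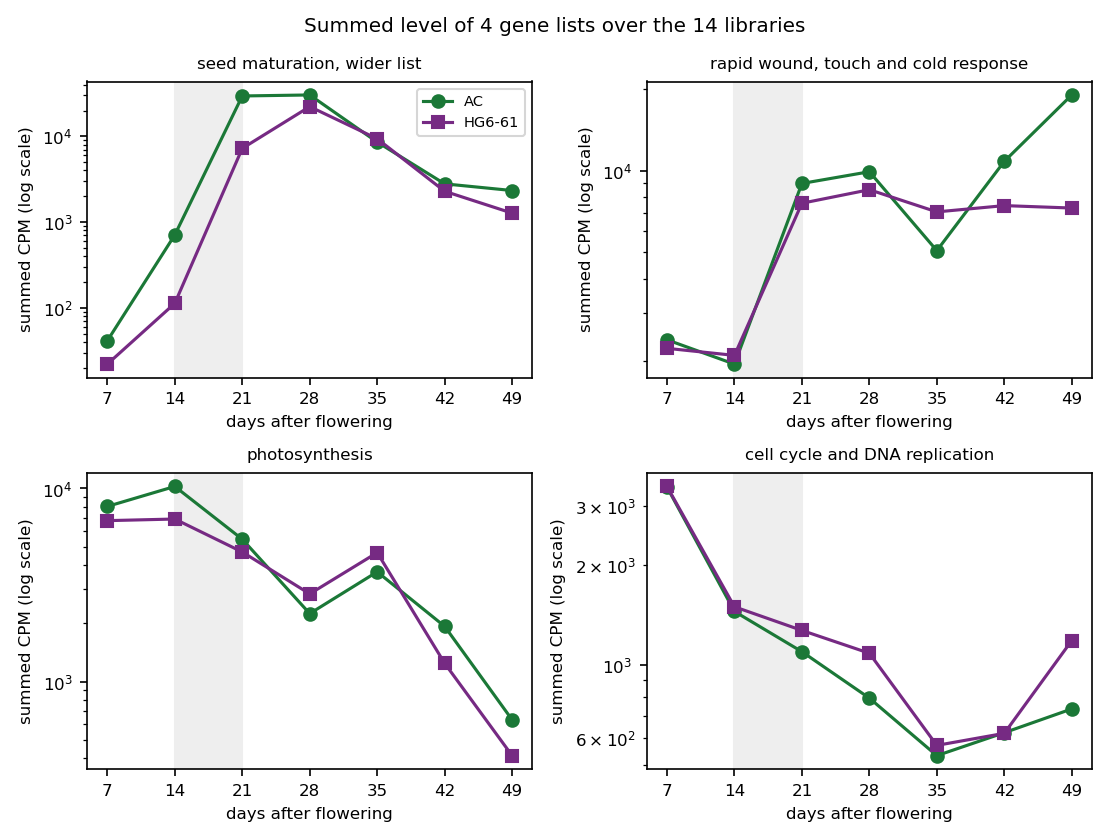
Summed CPM (log axis) of 4 gene lists at 7 ages in AC (circles) and HG6-61 (squares), with the interval from 14 to 21 DAF shaded. The seed list climbs steeply across the shaded interval and falls after 28 DAF, the rapid response list moves to a higher level and stays above its early one, the photosynthesis list declines across the interval, and the cell cycle list has its highest level at 7 DAF.

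Over the 7 ages, the rapid response list did not return to its early level. Its summed level was 2388, 1944, 8968, 9904, 5079, 10813 and 18967 CPM in AC from 7 to 49 DAF, and 2222, 2093, 7585, 8506, 7050, 7435 and 7284 CPM in HG6-61. The lowest of the 5 later values in each cultivar exceeds both of its earlier ones. Of the 55 members that rose, 21 had a higher level at 28 than at 21 DAF in both cultivars and 20 had a lower level in both.

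Transcription factors as listed by the study rose in larger number than they fell. Of 655 tested, 58 rose (8.85%) and 0 fell, against 2.86% and 0.423% of all genes tested. At an unadjusted p under 0.05, 137 were higher and 29 lower by edgeR, where 9.55% of all genes tested were higher and 6.11% lower. With DESeq2, 60 were called higher and 1 lower, whereas the fit of all 14 libraries called 24 higher and 0 lower, and the fit without cultivar 18 and 0. The 5 with the largest fitted rise were DDF1-like Solyc08g007830, the 2 DREB1A-like genes, RRTF1-like Solyc10g050970 and WRKY40-like Solyc03g116890, all of the rapid response list. The 2 lists share genes, so their counts are not separate results. The MYB-type gene Solyc12g049350, which fell and is described below, is not among the factors counted here.

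Genes that act on xyloglucan showed large changes. Of 22 tested xyloglucan endotransglucosylase/hydrolases, which cut and rejoin the xyloglucan chains between cellulose fibrils, 5 rose and 0 fell, with a median log2 fold change of 1.12. The 5 are 22.7% of those tested. At an unadjusted p under 0.05, 11 were higher and 5 lower. In both cultivars 12 of the 22 had a higher and 9 a lower level at 21 DAF. The summed level of all 34 listed genes did not rise. It was 965 CPM in AC and 1036 CPM in HG6-61 at 21 DAF, against 1034 and 1156 CPM at 14 DAF. XTR7-like Solyc07g056000 was at 176 CPM in AC and 89 CPM in HG6-61 at 21 DAF, against 2.72 and 2.2 CPM at 14 DAF (log2 fold change 5.63 ± 0.32, adjusted p = 0.0019), and XTR7-like Solyc12g017240 was at 134 CPM in AC and 40.6 CPM in HG6-61 at 21 DAF, against 7.78 and 2.64 CPM at 14 DAF (log2 fold change 4.03 ± 0.28, adjusted p = 0.00307). In both genes each 21 DAF library was far above both 14 DAF libraries. XTR6-like Solyc03g093080 was at 18.7 CPM in AC and 13.2 CPM in HG6-61 at 21 DAF, against 0 reads at 14 DAF, and so at least 16-fold higher in AC and at least 20-fold higher in HG6-61 (adjusted p = 0.0126). Its neighbour Solyc03g093120 was at 16.7 CPM in AC and 10.3 CPM in HG6-61 at 21 DAF, against 0 reads at 14 DAF, and so at least 14.3-fold higher in AC and at least 15.6-fold higher in HG6-61 (adjusted p = 0.015), and Solyc03g093130 had 26 reads in AC and 33 in HG6-61 at 21 DAF, against 1 and 0 at 14 DAF. The XTR6-like genes lie close together on chromosome 3, and the split of reads among them is uncertain. In the fit of all 14 libraries, 4 of these 5 genes were called, and 3 genes of the list were called without cultivar in the model. XYL1-like Solyc05g009470, an α-xylosidase that trims xyloglucan, fell, with 97.5 CPM in AC and 144 CPM in HG6-61 at 21 DAF, against 297 and 326 CPM at 14 DAF (log2 fold change -1.38 ± 0.24, adjusted p = 0.0334).

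Few expansins, which loosen the wall at acid pH, passed the test. Of 16 tested, 1 rose (6.25%) and 0 fell, and at an unadjusted p under 0.05, 4 were higher and 3 lower by edgeR. EXP3-like Solyc10g086520 was at 26.8 CPM in AC and 14.3 CPM in HG6-61 at 21 DAF, against 6.22 and 3.08 CPM at 14 DAF (log2 fold change 2.15 ± 0.36, adjusted p = 0.0301). The expansin genes with the most reads were not called. EXPA10-like Solyc02g088100 was at 179.8 CPM in AC and 398 CPM in HG6-61 at 21 DAF, against 274 and 265 CPM at 14 DAF with a log2 fold change of 0.00 ± 0.33, adjusted p = 0.999, and its libraries of the 2 ages overlap. EXPA13-like Solyc03g031840 had a log2 fold change of 0.11 ± 0.22, adjusted p = 0.876, and expansin-like EXPL1 (Solyc01g112000) one of 2.08 ± 0.41, adjusted p = 0.0511.

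Pectin methylesterases, which remove methyl groups from wall pectin, included 4 genes that rose among 14 tested (28.6%). None of the 6 pectate lyases tested was called by edgeR, with 3 of them lower and 0 higher at an unadjusted p under 0.05. DESeq2 called 4 pectin enzyme genes higher and 0 lower, but 0 were called in either direction with all 14 libraries in the fit or without cultivar in the model. PMEPCRA-like Solyc07g064170 was at 2009.6 CPM in AC and 2041 CPM in HG6-61 at 21 DAF, against 243 and 61.7 CPM at 14 DAF (log2 fold change 4.04 ± 0.53, adjusted p = 0.014). The 21 DAF libraries are nearly level in this gene while those of 14 DAF differ. Its neighbour Solyc07g064180 was at 199 CPM in AC and 291 CPM in HG6-61 at 21 DAF, against 79.3 and 44.5 CPM at 14 DAF (log2 fold change 2.03 ± 0.36, adjusted p = 0.0369). PME1-like Solyc03g123620 was at 80.8 CPM in AC and 86.9 CPM in HG6-61 at 21 DAF, against 17.1 and 30.4 CPM at 14 DAF (log2 fold change 1.84 ± 0.27, adjusted p = 0.0185), and Solyc10g049370, closest to AT2G26440, was at 38.4 CPM in AC and 12.9 CPM in HG6-61 at 21 DAF, against 5.83 and 0.441 CPM at 14 DAF (log2 fold change 3.34 ± 0.51, adjusted p = 0.0221). The HG6-61 level of Solyc10g049370 at 14 DAF lies below that of 3 reads, so the size of its fold is uncertain.

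On the list of cellulose and hemicellulose synthesis, 3 of 34 tested genes rose (8.82%) and 0 fell. CSLC4-like Solyc02g089640, a synthase of the xyloglucan backbone, was at 397 CPM in AC and 246 CPM in HG6-61 at 21 DAF, against 56.4 and 74 CPM at 14 DAF (log2 fold change 2.26 ± 0.32, adjusted p = 0.0164). KJK-like Solyc03g097050, a cellulose synthase-like gene needed for tip growth of root hairs in Arabidopsis, was at 276 CPM in AC and 216 CPM in HG6-61 at 21 DAF, against 12.4 and 20.3 CPM at 14 DAF (log2 fold change 3.88 ± 0.33, adjusted p = 0.00363). NWS2-like Solyc09g072820, closest to the CESA4 subunit of secondary walls, was at 74.7 CPM in AC and 20.8 CPM in HG6-61 at 21 DAF, against 6.61 and 2.64 CPM at 14 DAF (log2 fold change 3.25 ± 0.33, adjusted p = 0.00573). On a list of secondary wall and xylem genes made after the values were seen, this gene, NST1-like Solyc10g005010 and PGSIP1-like Solyc11g005760 rose among 9 tested and 0 fell. NST1, a NAC factor that starts secondary wall formation, was at 24.7 CPM in AC and 7.25 CPM in HG6-61 at 21 DAF, against 3.89 and 0.22 CPM at 14 DAF (log2 fold change 3.26 ± 0.60, adjusted p = 0.0396). Its HG6-61 level at 14 DAF lies below that of 3 reads, so the size of this fold is uncertain. PGSIP1, which adds side groups to xylan, was at 47 CPM in AC and 12.9 CPM in HG6-61 at 21 DAF, against 3.5 and 1.32 CPM at 14 DAF (log2 fold change 3.53 ± 0.39, adjusted p = 0.00773). Of 11 tested vascular markers, NWS2 was the 1 that rose, with 0 that fell, and the vascular list took 0.0312% of the counts in AC and 0.0272% in HG6-61 at 21 DAF, against 0.0267% in AC and 0.0336% in HG6-61 at 14 DAF.

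**Figure D4:**
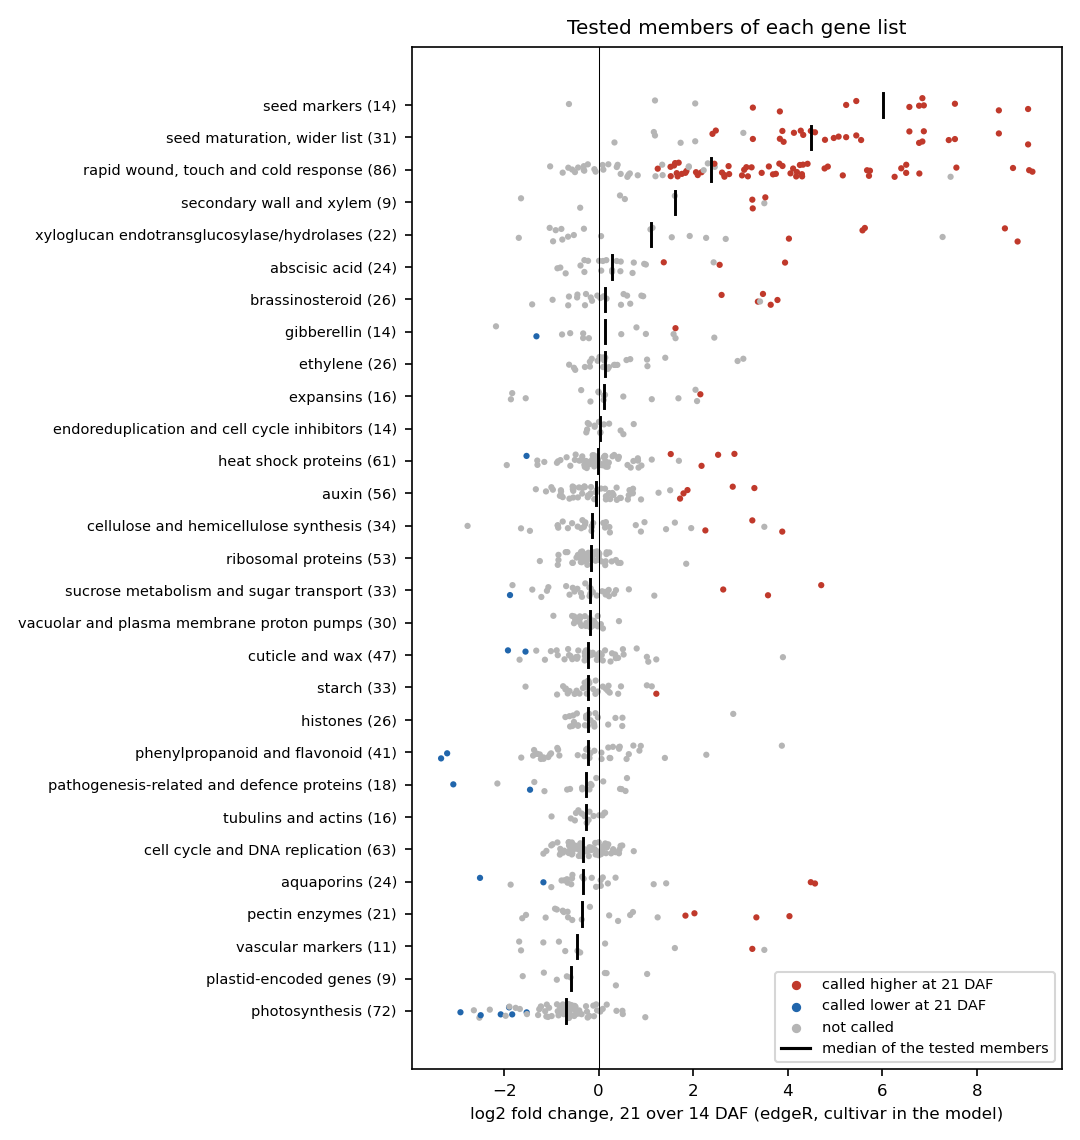
Log2 fold change (21 over 14 DAF) of the tested members of each gene list, with 1 point per gene, the number tested in parentheses and a black bar at the median. Red points were called higher and blue points lower at 21 DAF. The seed and rapid response lists lie to the right, with medians of 6.01, 4.49 and 2.38, and the photosynthesis list lies to the left with a median of -0.70.

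On the lists where edgeR called 0 genes lower, DESeq2 also called 0 lower for seed markers, rapid responses, xyloglucan endotransglucosylases, expansins, cellulose and hemicellulose synthesis, secondary wall, vascular markers, auxin, abscisic acid and brassinosteroids. At an unadjusted p under 0.05 by edgeR, these lists had 0, 1, 5, 3, 5, 1, 4, 5, 1 and 2 genes that were lower, in the same order. The fit of all 14 libraries called 1 gene of cellulose and hemicellulose synthesis, 2 of brassinosteroids, 1 aquaporin, 1 gene of sucrose metabolism and sugar transport and 1 heat shock protein gene higher and 0 of these lists lower, and the fit without cultivar called 2, 4, 0, 0 and 0 of them. For expansins, secondary wall, vascular markers, starch, gibberellin, cuticle and wax, and pathogenesis-related and defence proteins, 0 genes were called in either of these 2 fits, and for flavonoid and phenylpropanoid genes 0 and 1 were called lower.

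EXORDIUM-like (EXO) genes, which respond to brassinosteroids and promote cell expansion in Arabidopsis leaves, account for all 5 risers among 26 tested genes of brassinosteroid synthesis and signalling. Solyc04g074450 was at 185 CPM in AC and 93.3 CPM in HG6-61 at 21 DAF, against 8.17 and 10.1 CPM at 14 DAF (log2 fold change 3.78 ± 0.36, adjusted p = 0.00521) and Solyc04g074440 at 155 CPM in AC and 102 CPM in HG6-61 at 21 DAF, against 7.78 and 11.7 CPM at 14 DAF (log2 fold change 3.64 ± 0.34, adjusted p = 0.00512). Solyc04g074410 was at 117 CPM in AC and 74.3 CPM in HG6-61 at 21 DAF, against 11.3 and 18.7 CPM at 14 DAF and Solyc04g074420 at 28.8 CPM in AC and 26.3 CPM in HG6-61 at 21 DAF, against 1.17 and 3.74 CPM at 14 DAF. The 4 genes are neighbours on chromosome 4, and Solyc00g206460, which has no chromosome in the build, had 19 reads in AC and 98 in HG6-61 at 21 DAF, against 1 and 8 at 14 DAF. They resemble each other, so the split of their reads is uncertain. None of the 11 tested genes of brassinosteroid synthesis was called by edgeR, with 1 higher and 1 lower at an unadjusted p under 0.05.

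Aquaporins of the tonoplast, the membrane of the vacuole, changed in both directions. Beside the 2 seed-type BETA-TIP-like genes that rose, TIP1;1-like Solyc06g074820 fell to 151 CPM in AC and 177 CPM in HG6-61 at 21 DAF, against 323 and 417 CPM at 14 DAF (log2 fold change -1.17 ± 0.23, adjusted p = 0.0493). TIP2;1-like Solyc12g044330 had 4 reads in AC and 15 in HG6-61 at 21 DAF, against 26 and 68 at 14 DAF (log2 fold change -2.51 ± 0.47, adjusted p = 0.0418), and it fell as well. Of 12 tested plasma membrane aquaporins, 0 were called by edgeR, with 0 higher and 2 lower at an unadjusted p under 0.05, and DESeq2 called 1 gene of the whole aquaporin list higher and 1 lower. Neither were any of 30 tested subunits of vacuolar and plasma membrane proton pumps by edgeR, DESeq2 or at an unadjusted p under 0.05, and their median log2 fold change was -0.19. VHA-A3-like Solyc01g110120, a vacuolar ATPase subunit, had a log2 fold change of -0.39 ± 0.28, adjusted p = 0.582.

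Among 33 tested genes of sucrose metabolism and sugar transport, 3 rose (9.09%) and 1 fell (3.03%), and 20 log2 fold changes were negative. The summed level of the sucrose synthesis and cleavage genes was lower at 21 DAF. It was 2660 CPM in AC and 3341 CPM in HG6-61, against 6760 and 4119 CPM at 14 DAF. For the sugar transport genes it was 647 CPM in AC and 631 CPM in HG6-61 at 21 DAF, against 389 and 643 CPM at 14 DAF. SUS1-like Solyc07g042520, a sucrose synthase that cleaves sucrose in sink tissue, had 49 reads in AC and 52 in HG6-61 at 21 DAF, against 3 and 5 at 14 DAF (log2 fold change 3.58 ± 0.56, adjusted p = 0.023). Solyc09g074530, whose closest Arabidopsis gene AT5G50790 is a SWEET sugar transporter, was at 187 CPM in AC and 42.7 CPM in HG6-61 at 21 DAF, against 21.8 and 9.69 CPM at 14 DAF (log2 fold change 2.64 ± 0.31, adjusted p = 0.00949). Solyc03g097580, closest to the SWEET gene AT3G48740, had 255 reads in AC and 13 in HG6-61 at 21 DAF, against 13 and 0 at 14 DAF (adjusted p = 0.005), so that its level was much lower in HG6-61. STP1-like Solyc02g079220, a hexose transporter, fell, with 2.02 CPM in AC and 31.1 CPM in HG6-61 at 21 DAF, against 5.83 and 119.8 CPM at 14 DAF (log2 fold change -1.87 ± 0.29, adjusted p = 0.0219), although AC had few reads at either age and the value without HG6-61 at 14 DAF was 1.48. Of 33 tested starch genes, 1 rose and 0 fell by edgeR. This is 3.03%, near the 2.86% of all genes tested that rose. The gene, CT-BMY-like Solyc08g077530, a plastid β-amylase, was at 226 CPM in AC and 324 CPM in HG6-61 at 21 DAF, against 98.8 and 137 CPM at 14 DAF (log2 fold change 1.22 ± 0.22, adjusted p = 0.0396). DESeq2 called 2 starch genes higher and 1 lower. APS1-like Solyc07g056140, the small subunit of the enzyme that makes the glucose donor of starch, was at 492 CPM in AC and 419 CPM in HG6-61 at 21 DAF, against 1306 and 536 CPM at 14 DAF with a log2 fold change of -0.88 ± 0.33, adjusted p = 0.258.

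Hormone genes gave a few calls each. Of 56 tested auxin genes, 5 rose (8.93%) and 0 fell. IAA4-like Solyc09g065850, a repressor of auxin responses that auxin itself induces, was at 76.3 CPM in AC and 27.7 CPM in HG6-61 at 21 DAF, against 3.89 and 4.85 CPM at 14 DAF (log2 fold change 3.30 ± 0.45, adjusted p = 0.0148). GH3.1-like Solyc01g107390, of the family that links auxin to amino acids, had 55 reads in AC and 31 in HG6-61 at 21 DAF, against 10 and 3 at 14 DAF (log2 fold change 2.84 ± 0.48, adjusted p = 0.0301). PIN5-like Solyc01g068410, an auxin carrier of the endoplasmic reticulum, was at 51 CPM in AC and 10.3 CPM in HG6-61 at 21 DAF, against 10.9 and 3.74 CPM at 14 DAF (log2 fold change 1.88 ± 0.35, adjusted p = 0.0424). The 2 ARF9-like genes Solyc01g096070 and Solyc08g082630, auxin response factors, had log2 fold changes of 1.72 ± 0.26, adjusted p = 0.0214 and 1.80 ± 0.30, adjusted p = 0.0282. In tomato, ARF9 is known to restrain cell division in the young fruit. Of the 5 auxin genes, IAA4 was also called in the fit of all 14 libraries, and 0 auxin genes were called without cultivar in the model.

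Of 24 tested abscisic acid genes, 3 rose (12.5%) and 0 fell. None was called in the fit of all 14 libraries, and 1 was called without cultivar in the model. STO1-like Solyc07g056570 is closest to NCED3, whose enzyme cuts a carotenoid in the step that limits abscisic acid synthesis, and it was at 156 CPM in AC and 135 CPM in HG6-61 at 21 DAF, against 31.1 and 19.6 CPM at 14 DAF (log2 fold change 2.56 ± 0.25, adjusted p = 0.00533). CYP707A1-like Solyc08g005610, which breaks abscisic acid down, was at 33.8 CPM in AC and 20.1 CPM in HG6-61 at 21 DAF, against 0.389 and 2.42 CPM at 14 DAF (log2 fold change 3.94 ± 0.62, adjusted p = 0.023). Its AC level at 14 DAF rests on 1 read, so the size of this fold is uncertain. PP2CA-like Solyc05g052980, a phosphatase that damps abscisic acid signalling, was at 475 CPM in AC and 291 CPM in HG6-61 at 21 DAF, against 142 and 143 CPM at 14 DAF (log2 fold change 1.38 ± 0.27, adjusted p = 0.0489).

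Among 14 tested gibberellin genes, 1 rose and 1 fell (7.14% each). GID1B-like Solyc09g074270, a gibberellin receptor, rose, with 45.5 CPM in AC and 23.4 CPM in HG6-61 at 21 DAF, against 14.4 and 7.71 CPM at 14 DAF (log2 fold change 1.63 ± 0.28, adjusted p = 0.0331). KAO2-like Solyc12g006460, an oxidase of gibberellin synthesis, fell, with 46.5 CPM in AC and 33.2 CPM in HG6-61 at 21 DAF, against 99.2 and 95.2 CPM at 14 DAF (log2 fold change -1.32 ± 0.24, adjusted p = 0.0375). Its relative Solyc01g080900 was not called and had a log2 fold change of -0.21 ± 0.22, adjusted p = 0.739. KS1-like Solyc08g005640, closest to a kaurene synthase gene of an earlier step, was not on the list but was among the largest falls, and it had 2 reads in AC and 5 in HG6-61 at 21 DAF, against 24 and 34 at 14 DAF (log2 fold change -3.17 ± 0.60, adjusted p = 0.0447). Of 26 tested ethylene genes, 0 were called by edgeR or DESeq2, with 5 higher and 1 lower at an unadjusted p under 0.05.

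Heat shock genes changed in 5 of 61 tested, with 4 that rose (6.56%) and 1 that fell (1.64%). HSP70-1-like Solyc06g076020, a cytosolic chaperone, was at 372 CPM in AC and 175 CPM in HG6-61 at 21 DAF, against 40.5 and 46.9 CPM at 14 DAF (log2 fold change 2.53 ± 0.36, adjusted p = 0.016). The small heat shock protein gene Solyc11g020330 (ATHSP22.0-like) was at 317 CPM in AC and 96.1 CPM in HG6-61 at 21 DAF, against 50.2 and 11 CPM at 14 DAF (log2 fold change 2.87 ± 0.25, adjusted p = 0.00424), whereas HSP17.6II-like Solyc08g062340 fell to 29.8 CPM in AC and 32.7 CPM in HG6-61 at 21 DAF, against 71.2 and 110.1 CPM at 14 DAF (log2 fold change -1.53 ± 0.25, adjusted p = 0.0256). The heat shock factors HSFB1 (Solyc02g090820) and HSFB2B (Solyc08g080540) had log2 fold changes of 1.53 ± 0.26, adjusted p = 0.0329 and 2.18 ± 0.30, adjusted p = 0.0149.

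Light-harvesting antenna genes were among those that fell. Of 72 tested photosynthesis genes, 6 fell and 0 rose, and all 6 encode chlorophyll-binding antenna proteins. The median log2 fold change was -0.70, and 65 of the 72 values were negative. By role the median was -1.52 for 23 antenna genes, -0.60 for 25 photosystem subunits, -0.58 for 14 carbon fixation genes and -0.45 for 10 genes of electron transport and ATP synthase. At an unadjusted p under 0.05, 44 of the 72 were lower and 0 higher, where 6.11% of all genes tested were lower, and DESeq2 called 9 lower and 0 higher. LHCB1.3-like Solyc03g005780 fell to 15.7 CPM in AC and 9.03 CPM in HG6-61 at 21 DAF, against 75.5 and 33.7 CPM at 14 DAF (log2 fold change -2.07 ± 0.26, adjusted p = 0.0127). LHCB1.3-like Solyc03g005760 had 248 reads in AC and 215 in HG6-61 at 21 DAF, against 922 and 454 at 14 DAF (log2 fold change -1.52 ± 0.22, adjusted p = 0.0185). The other LHCB1.3-like genes that were called had log2 fold changes of -2.92 ± 0.44, adjusted p = 0.0207 for Solyc02g070940, -1.89 ± 0.25, adjusted p = 0.0143 for Solyc02g071020 and -2.50 ± 0.39, adjusted p = 0.0229 for Solyc03g005770. LHCB3-like Solyc07g063600 was at 6.06 CPM in AC and 8.54 CPM in HG6-61 at 21 DAF, against 25.3 and 27.5 CPM at 14 DAF (log2 fold change -1.83 ± 0.32, adjusted p = 0.034). Reads that fit several of the LHCB1.3-like genes were removed, so the split among them is uncertain. In the fit of all 14 libraries, 1 photosynthesis gene, Solyc03g005780, was called, and 1 gene of the list was called without cultivar in the model. Of 9 tested plastid-encoded genes, 0 were called by edgeR or DESeq2 and 0 had an unadjusted p under 0.05.

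Flavonoid genes were also among those that fell. Of 13 tested, 2 fell and 0 rose by edgeR, and at an unadjusted p under 0.05, 9 were lower and 0 higher. TT4-like Solyc09g091510, a chalcone synthase that starts flavonoid synthesis, fell to 5.05 CPM in AC and 3.71 CPM in HG6-61 at 21 DAF, against 34.6 and 48.2 CPM at 14 DAF (log2 fold change -3.33 ± 0.36, adjusted p = 0.00728). The chalcone synthase gene with more reads, Solyc05g053550, was not called and had 116 CPM in AC and 81.6 CPM in HG6-61 at 21 DAF, against 177 and 231 CPM at 14 DAF (log2 fold change -1.07 ± 0.28, adjusted p = 0.121). PFG1-like Solyc12g049350, matched in the files to the Arabidopsis MYB12 activator of flavonol synthesis, fell and had 1 reads in AC and 15 in HG6-61 at 21 DAF, against 22 and 90 at 14 DAF (log2 fold change -3.20 ± 0.50, adjusted p = 0.0231). It is not the gene that the study names as tomato MYB12, which is Solyc01g079620 and whose values are not given here. FLS1-like Solyc11g013110, a flavonol synthase, and TT7-like Solyc04g071800, a flavonoid hydroxylase, missed the threshold with log2 fold changes of -1.17 ± 0.23, adjusted p = 0.0523 and -1.16 ± 0.24, adjusted p = 0.0585. None of 28 tested genes of phenylpropanoid and lignin synthesis was called by edgeR, with 3 higher and 5 lower at an unadjusted p under 0.05. Over the whole list of 41 tested genes, DESeq2 called 0 higher and 5 lower.

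The 10 genes that fell most by the smaller of their within-cultivar ratios also included DIR1, PA2, RCI3A, TBL3 and Solyc08g074620. DIR1-like Solyc01g109390, a lipid transfer protein of systemic resistance, had 0 reads in AC and 22 in HG6-61 at 21 DAF, against 53 and 139 at 14 DAF (adjusted p = 0.0287). PA2 and RCI3A encode peroxidases. PA2-like Solyc10g078890 had 1 reads in AC and 30 in HG6-61 at 21 DAF, against 99 and 160 at 14 DAF and RCI3A-like Solyc07g052510 had 2 reads in AC and 58 in HG6-61 at 21 DAF, against 74 and 237 at 14 DAF. TBL3-like Solyc07g053330, of a family that acetylates wall polysaccharides, had 1 reads in AC and 2 in HG6-61 at 21 DAF, against 37 and 14 at 14 DAF (adjusted p = 0.0484). Solyc08g074620, which has no Arabidopsis match in the files, had 0 reads in AC and 8 in HG6-61 at 21 DAF, against 93 and 67 at 14 DAF (adjusted p = 0.0249). Of 47 tested cuticle and wax genes, 2 fell (4.26%) and 0 rose by edgeR, while DESeq2 called 3 lower and 1 higher. CER1-like Solyc01g088400, of alkane synthesis for the wax, fell to 6.57 CPM in AC and 28.5 CPM in HG6-61 at 21 DAF, against 21 and 80 CPM at 14 DAF (log2 fold change -1.55 ± 0.26, adjusted p = 0.0289), and LCR-like Solyc01g094750, a fatty acid hydroxylase of cutin synthesis, to 6.57 CPM in AC and 5.8 CPM in HG6-61 at 21 DAF, against 31.9 and 18.3 CPM at 14 DAF (log2 fold change -1.92 ± 0.34, adjusted p = 0.0375). Of 18 tested pathogenesis-related and defence genes, LCR79-like Solyc07g006380 and PGIP1-like Solyc07g065090 fell (11.1%) and 0 rose. LCR79, a small cysteine-rich protein, had 1 reads in AC and 55 in HG6-61 at 21 DAF, against 25 and 307 at 14 DAF (log2 fold change -3.07 ± 0.37, adjusted p = 0.0112). PGIP1, an inhibitor of fungal polygalacturonases, fell to 36.4 CPM in AC and 44.8 CPM in HG6-61 at 21 DAF, against 79.7 and 148 CPM at 14 DAF (log2 fold change -1.45 ± 0.25, adjusted p = 0.033).

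Measured by the loss in CPM, the genes that fell most were Solyc01g073640, Solyc01g007690, UGT73B4-like Solyc12g009930, Solyc03g005760, TIP1;1, XYL1, Solyc01g006400, Solyc09g059170, Solyc05g050970 and Solyc01g096450. Solyc01g073640, closest to AT2G47140, was at 141 CPM in AC and 342 CPM in HG6-61 at 21 DAF, against 795 and 1089 CPM at 14 DAF (log2 fold change -2.08 ± 0.30, adjusted p = 0.0185). UGT73B4-like Solyc12g009930, a sugar transferase, fell to 98 CPM in AC and 165 CPM in HG6-61 at 21 DAF, against 353 and 419 CPM at 14 DAF (log2 fold change -1.59 ± 0.25, adjusted p = 0.0235). The gene Solyc05g050970, closest to a plastid transketolase, was at 85.9 CPM in AC and 112 CPM in HG6-61 at 21 DAF, against 224 and 252 CPM at 14 DAF (log2 fold change -1.27 ± 0.23, adjusted p = 0.0358). Solyc01g007690 and Solyc01g006400, without an Arabidopsis match in the files, had log2 fold changes of -1.49 ± 0.23, adjusted p = 0.0234 and -2.75 ± 0.24, adjusted p = 0.00424. Over 28 against 7 DAF, Solyc01g073640, Solyc12g009930 and Solyc05g050970 were also called lower, while Solyc01g007690 was not, with a log2 fold change of -0.18.

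By gain in CPM, the genes that rose most included 5 of the storage globulins above, PMEPCRA-like Solyc07g064170 and 4 others. SAG21-like Solyc09g075210, a late embryogenesis abundant protein of stressed and ageing tissue, was at 4079 CPM in AC and 1743 CPM in HG6-61 at 21 DAF, against 870.5 and 147 CPM at 14 DAF (log2 fold change 2.90 ± 0.40, adjusted p = 0.0158). Solyc10g081570, which has no Arabidopsis match in the files, was at 2332 CPM in AC and 2102 CPM in HG6-61 at 21 DAF, against 293 and 310.4 CPM at 14 DAF (log2 fold change 2.88 ± 0.28, adjusted p = 0.00533), and the cultivars lie close together at each age. Solyc04g007770, closest to AT5G28010, was at 2762 CPM in AC and 789.5 CPM in HG6-61 at 21 DAF, against 307 and 192 CPM at 14 DAF (log2 fold change 2.60 ± 0.36, adjusted p = 0.0152). Solyc06g048440, closest to AT5G06640, was at 2149.5 CPM in AC and 454 CPM in HG6-61 at 21 DAF, against 38.5 and 0.661 CPM at 14 DAF (log2 fold change 6.80 ± 0.72, adjusted p = 0.00657). Solyc00g265510, with no match and no chromosome, was among the genes with the largest ratios in both cultivars and was at 345 CPM in AC and 77.5 CPM in HG6-61 at 21 DAF, against 3.89 and 0.441 CPM at 14 DAF (log2 fold change 6.71 ± 0.35, adjusted p = 0.00183). Its levels at 14 DAF rest on 10 reads in AC and 2 in HG6-61, so the size of this fold is uncertain.

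No gene of cell division passed the test over this interval. Of 63 tested cell cycle and DNA replication genes, 0 were called by edgeR or DESeq2, and at an unadjusted p under 0.05, 0 were higher and 8 lower. Their median log2 fold change was -0.32, with 45 of 63 values negative, and it was -0.50 for 24 DNA replication genes, of which 20 were lower in both cultivars. At 28 against 7 DAF the median of the list was -2.43. The summed level of the list was 3422, 1445 and 1093 CPM in AC at 7, 14 and 21 DAF, and 3437, 1493 and 1267 CPM in HG6-61. CYCD3;2-like Solyc01g107730, a D-type cyclin, had a log2 fold change of -0.57 ± 0.22, adjusted p = 0.286. Of 14 tested genes of endoreduplication and cell cycle inhibition, 0 were called by edgeR or DESeq2, with 1 higher and 0 lower at an unadjusted p under 0.05. The inhibitor genes KRP1 (Solyc02g090680) and KRP3 (Solyc09g091780) had log2 fold changes of 0.01 ± 0.25, adjusted p = 0.995 and -0.08 ± 0.22, adjusted p = 0.906.

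Of 26 tested histone genes, edgeR called 0 and DESeq2 called 1 higher and 0 lower, with 1 higher and 0 lower at an unadjusted p under 0.05 by edgeR. Of 53 tested ribosomal protein genes, 0 were called by edgeR or DESeq2, with 1 higher and 5 lower at an unadjusted p under 0.05, and the median was -0.17. For 16 tested tubulin and actin genes, 0 were called by edgeR or DESeq2, with 0 higher and 1 lower at an unadjusted p under 0.05. TUA6-like Solyc04g077020, an α-tubulin, had 3051 CPM in AC and 3426 CPM in HG6-61 at 21 DAF, against 4320.4 and 3972 CPM at 14 DAF and a log2 fold change of -0.36 ± 0.29, adjusted p = 0.642. A miss of the threshold does not show equal levels: in simulated libraries of this size, the test called 23.5% of genes changed by a log2 of 1, 81.8% of those changed by 2 and 98.5% of those changed by 3.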

How the data were processed

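The authors sequenced RNA of fruit pericarp with Illumina technology. They trimmed and filtered the reads, aligned them with TopHat (tomato genome build SL2.40) and dropped those with several matches. The deposited counts are whole numbers of the remaining reads on each of 26397 genes, and the RPKM values of the authors divide these reads by gene length and library size. Whether strand was used in counting is not given in the sources used here, so a gene and an overlapping gene on the other strand may share reads. The 4 libraries of 21 and 14 DAF held between 2052528 and 6274456 counts, and 24384 genes had a read in at least 1 of them.

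Counts were tested with edgeR 4.0.16 in R 4.3.3 (TMM factors, filterByExpr by age, robust quasi-likelihood test) with terms for age and cultivar, and a call needed an adjusted p (Benjamini-Hochberg, over all 16789 genes tested) under 0.05. The pairing is that of the labels, since the libraries of a cultivar come from the same line. The model leaves 1 residual degree of freedom, so the spread of a gene leans on that of the others (median prior degrees of freedom 5.67). Nothing in the sources says that the libraries of a cultivar at the 2 ages are more than 1 sample each, so p-values measure the spread between cultivars. Within-cultivar ratios set levels under 3 reads to 3 reads. On simulated counts for this comparison, 7 of 16589 unchanged genes were called. Each simulated gene had the spread of the fitted trend and the same cultivar difference at both ages, so the real rate of false calls may be higher.

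The members and the gene lists were chosen with earlier results of these data known. Lists were matched by the Arabidopsis identifier or symbol in the files, and the transcription factors by the identifiers in a supplement of the study. The lists of rapid responses, wider seed maturation and secondary wall were made after the values were seen. Genes were named by rule: the 10 called genes that rose most and the 10 that fell most by the smaller within-cultivar ratio, the 10 with the largest gain and loss in mean CPM, up to 6 called genes per list with the largest fold or the 3 with the most reads where fewer than 3 were called, the 5 transcription factors that rose and fell most, and genes with opposite changes of over 4-fold in the cultivars. The libraries of 28 and 7 DAF were tested in the same way. Alternatives were RLE size factors, library totals, other filters, thinning of each library to 2052528 counts, 8 or 14 libraries, no cultivar term, DESeq2 1.42.0, limma 3.58.1 on log2(RPKM + 1) and log2(RPKM + 0.1), and leaving out each library. Python 3.11.15, pandas 2.3.3 and matplotlib 3.10.9 were used. No reference sequence or annotation of the build was used here.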

Additional observations from a re-analysis of the deposited data

Results flagged for a closer look

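For 3 genes the 2 cultivars changed in opposite directions between 14 and 21 DAF by over 4-fold each, where each cultivar had 30 or more reads at 14 or 21 DAF. With 1 library per cultivar and age, the difference between the cultivars was not tested. PR4-like Solyc01g097240, a chitin-binding defence protein, had a log2 ratio of 21 over 14 DAF of 2.74 in AC and -2.17 in HG6-61, from 36 reads in AC and 112 in HG6-61 at 21 DAF, against 7 and 368 at 14 DAF. Solyc02g077040, closest to AT3G49340, had a log2 ratio of 2.06 in AC and -2.44 in HG6-61, from 58 and 223 reads at 21 DAF, against 18 and 887 at 14 DAF. Solyc06g072350, closest to AT2G39518, had a log2 ratio of 3.91 in AC and -3.07 in HG6-61, from 289 and 25 reads at 21 DAF, against 25 and 154 at 14 DAF. None of the 3 was called over both cultivars, with edgeR adjusted p values of 0.837, 0.795 and 0.942 in the order given.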

How the results depend on the processing

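RLE size factors gave 480 genes called higher and 69 lower, library totals 453 and 82, DESeq2 519 and 84, a minimum of 20 reads over the 4 libraries (added after seeing the data) 551 and 101, and the 8 libraries from 7 to 28 DAF 499 and 86. A minimum of 10 reads in each library gave 442 and 111, no filter on low counts 1172 and 436, thinning to the smallest library 670 and 177, and leaving out the seed lists, added after seeing the data, 652 and 154. Fewer were called by limma on log2(RPKM + 1), with 305 and 32, and on log2(RPKM + 0.1), with 44 and 1. All 14 libraries gave 188 and 11, and the limits of the study 136 and 5. Without the pairing by cultivar (no replicate block), 127 and 6 were called, and leaving out a library from the 14-library fit gave 48 to 121 higher and 0 to 4 lower. There, the lone library of an age is assumed to vary like the others. The cause of these moves was not tested.

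Of the 92 named genes that were called, 91 stayed called with RLE factors, 80 with DESeq2, 30 with all 14 libraries and 20 without the pairing. The sign changed in 1 case, STP1-like Solyc02g079220 without HG6-61 at 14 DAF (log2 fold change 1.48, adjusted p = 0.933 by edgeR), and over its alternatives the log2 fold change ranged from -4.79 to 1.48 and the adjusted p from 2.17e-06 to 1. Depth limits the comparison most in AC at 21 DAF, the smallest library, where 3 reads stand for 1.52 CPM.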

Other observations

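The gene lists hold 115 of the 480 genes that rose and 17 of the 71 that fell, so 365 and 54 genes are on no list. No Arabidopsis match is given in the files for 32 of the genes that rose and 11 of those that fell. The summed level of the 480 genes was 108145 CPM in AC and 52722 CPM in HG6-61 at 21 DAF, against 12222 CPM in AC and 9699 CPM in HG6-61 at 14 DAF. That of the 71 genes was 1669 CPM in AC and 2441 CPM in HG6-61 at 21 DAF, against 5946 CPM in AC and 7677 CPM in HG6-61 at 14 DAF.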
